A study of Mus musculus with 10 samples.

Results

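The expression of unmodified wild-type (WT) mouse embryonic stem (ES) cells was described from the Cy3 channel of the 6 two-colour arrays on which WT RNA was hybridised, 6 of the 20 labelled channels of the series. These channels held 4 WT lines: the female lines WT 7 (1 array) and WT 94 (2 arrays), and the male lines WT 6 (2 arrays) and WT 92 (1 array). None of the lines carries a knockout allele or received an agent according to the labels, and the lines share a mixed C57BL/6 background. The cells grew in medium with LIF on gamma-irradiated feeder fibroblasts, and the feeders were taken away by preplating on gelatin before RNA was extracted. The Cy5 channel of each array held RNA of a Tet1 and Tet2 double knockout line of the same sex, which is not described here. The 3 male arrays lay on 1 slide and the 3 female arrays on another, so sex and slide cannot be told apart. The replicate was the line, and p-values measure the spread between these lines. Precision is limited by how few lines and arrays there were.

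ES cells come from the pluripotent cells inside the blastocyst and renew themselves through a circuit of transcription factors, in which Pou5f1, Sox2 and Nanog are central and LIF acts through Stat3. Cultures of ES cells are known to be mixed: single cells pass in and out of a state that resembles the embryo at the 2-cell stage, and others drift towards the primed epiblast or the primitive endoderm. Levels below are normalized log2 Cy3 intensities, each from 1 probe, so a level is compared between lines and not between genes. The range of a gene is its highest minus its lowest level over the 4 lines, on the log2 scale.

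The defining pluripotency genes were measured in each line, as the ES cell label has it. Pou5f1, whose probe lies on chromosome 17 from 35647280 (mm9, to which the array was designed), had levels of 15.37 in WT 7, 15.07 in WT 94, 15.14 in WT 6 and 14.90 in WT 92. Sox2, the partner of Pou5f1 on DNA, had 12.29, 12.64, 12.63 and 12.29 in the same order of lines. Nanog, a homeobox factor that sustains self-renewal, had 15.37, 15.65, 15.31 and 15.38. The 3 genes were well above background on 6 of 6 arrays and their ranges were 0.47, 0.35 and 0.34, with the sexes overlapping for Sox2 and Nanog and also for Pou5f1.

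Of 31660 genes on the array, 16622 (52.5%) were well above background on all 6 arrays, 3438 (10.9%) on 1 to 5 of them, and 11600 (36.6%) on none. Between 55.2% and 61.5% of the 43020 gene spots passed on an array, and no gene spot was saturated. Of the 31660 genes, 576 were above background in WT 7 and in no other line, against 63 in WT 94, 8 in WT 6 and 82 in WT 92. WT 7 and WT 92 had 1 array each, which makes such a count easier to reach than with 2 arrays. The array of WT 7 also had the largest share of gene spots above background (61.5%, against 57.5% for that of WT 92). The part of this share in the count was not tested. Levels were compared for 17893 genes whose probe was well above background on every array of at least 1 sex. Of these, 16609 passed in both sexes, 1159 in the female lines only and 125 in the male lines only. For a gene that passed in 1 sex only, the filter itself favoured a higher level in that sex.

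The median range over the 4 lines was 0.359, while repeat arrays of a line differed by a median of 0.103 for WT 94 and 0.0905 for WT 6. A range over 4 values tends to exceed a difference between 2, so these measures are not alike. Between single arrays of 2 lines on a slide, the median difference was 0.192 for WT 7 and WT 94 and 0.157 for WT 6 and WT 92. A range above 1, a 2-fold difference, was found for 1205 genes (6.73% of those compared). In 1204 of these the range exceeded the difference between the repeat arrays of both WT 94 and WT 6. A range above 2 was found for 170 genes and above 3 for 64 genes. WT 7 stood farthest from the mean of the lines for 589 of the 1205 genes (48.9%), above its share of 36.8% over the compared genes, and WT 92 did so for 298, WT 6 for 170 and WT 94 for 148. The number of genes with a range above 1 was 603 without WT 7, 1050 without WT 94, 924 without WT 6 and 790 without WT 92. With the genes ranked by mean level into 4 groups of equal size, 179 of 4474 genes in the dimmest group had a range above 1, against 10.4% and 8.81% in the middle groups and 3.76% in the brightest.

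**Figure D1:**
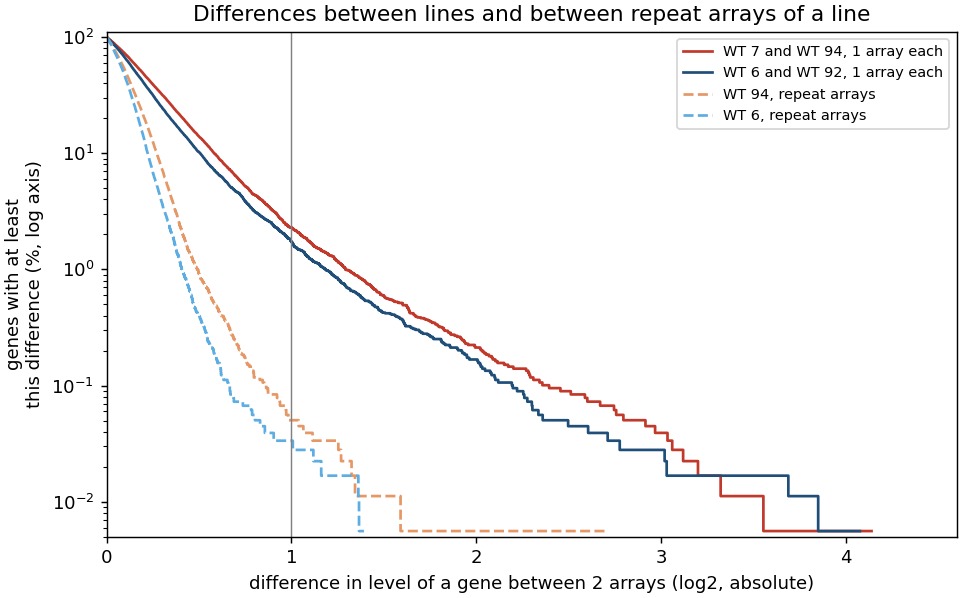
Share of genes (percent, log axis) whose level differed by at least the amount on the x axis (log2, absolute) between 2 arrays; solid lines compare 2 lines of a sex on 1 slide, dashed lines repeat arrays of a line. WT 7 and WT 94 differed by over 1 for 407 genes and WT 6 and WT 92 for 309, against 9 genes between the repeat arrays of WT 94 and 6 between those of WT 6.

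Between lines of a sex, which share a slide, 385 genes differed by over 1 between WT 7 and WT 94 (197 higher and 188 lower in WT 7) and 302 between WT 6 and WT 92 (125 higher and 177 lower in WT 6). Across the sexes the number was 506 for WT 7 against WT 6, 784 for WT 7 against WT 92, 337 for WT 94 against WT 6 and 270 for WT 94 against WT 92. The pair of lines with the fewest such genes, WT 94 and WT 92, was thus one of opposite sex and on different slides.

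Genes of the 2-cell-like state had the largest median range of the 25 gene lists when only members above background on all 6 arrays were taken (4.30 over 8 genes, against 0.362 over such genes of the array). This state is a rare and passing condition of ES cells in which genes of the early embryo, such as the Zscan4 cluster, are switched on. Of 20 listed genes 17 were on the array, 8 of them were well above background on all 6 arrays, and 5 of these 8 had a range above 1 (62.5%, against 6.69% of the compared genes that were above background on all 6 arrays). The level ran from WT 7 through WT 94 and WT 6 down to WT 92 in 7 of these 8 genes (87.5%), an order found in 6.30% of such genes. A further 6 listed genes passed the filter through the female lines only, and Tdpoz4, Arg2 and Dux did not pass it. In bulk RNA, fewer cells in a state and less RNA per cell cannot be told apart.

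Zscan4f encodes a zinc-finger protein with a SCAN domain that is tied to telomere lengthening and the 2-cell-like state. Its level was 14.22 in WT 7, 12.12 in WT 94, 10.14 in WT 6 and 9.37 in WT 92, a range of 4.85 (28.8-fold). Its neighbour Zscan4c had 12.38, 10.08, 8.92 and 7.80 in the same lines, a range of 4.58. The female lines lay above the male lines for both genes, and each line differed from the next by more than the repeat arrays did (0.16 and 0.43 in WT 94, 0.21 and 0.09 in WT 6). Zscan4a and Zscan4e had ranges of 4.39 and 4.33 in the same order of lines. The probes of Zscan4f (chromosome 7 from 11987608, mm9) and Zscan4c (from 11595751) may not tell the copies of the cluster apart. The promoters of both genes are shown because the levels read by their probes moved together. Each sequence is the 250 bases before the start of the gene, from RefSeq on GRCm38.p6, plus strand (chr7:11005495-11005744 for Zscan4c and chr7:11397665-11397914 for Zscan4f), with capitals marking the letters TATAAA.
Zscan4c: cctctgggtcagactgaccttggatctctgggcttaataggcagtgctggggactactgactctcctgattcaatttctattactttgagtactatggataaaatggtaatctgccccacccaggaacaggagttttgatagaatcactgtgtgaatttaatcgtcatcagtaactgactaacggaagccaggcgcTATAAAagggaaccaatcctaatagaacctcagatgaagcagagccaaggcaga
Zscan4f: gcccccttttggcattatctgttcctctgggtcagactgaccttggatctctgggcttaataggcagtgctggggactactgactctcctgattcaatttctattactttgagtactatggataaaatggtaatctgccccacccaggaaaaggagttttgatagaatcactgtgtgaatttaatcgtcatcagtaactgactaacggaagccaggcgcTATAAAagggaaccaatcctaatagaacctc
The pair of sequences was identical at 226 of 227 aligned bases (99.6%). Each holds the letters TATAAA 1 time on either strand, as do 12.4% of 32851 promoter sequences of the same length, and 3 CG pairs, against a median of 6. The motif was chosen after the sequences had been read, and a match describes the letters only.

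The largest range of any gene above background on all arrays was that of AF067061, another gene of this list. It had levels of 13.64 in WT 7, 10.52 in WT 94, 9.89 in WT 6 and 7.79 in WT 92, a range of 5.84 (57.4-fold), and its other probe had a range of 2.94. Gm4340, from a multi-copy group on chromosome 10, had 12.93, 11.21, 9.57 and 8.65. Eif1a, which encodes a translation initiation factor and has related copies active in 2-cell embryos, had 14.15, 13.88, 13.80 and 13.64, a range of 0.51. Zfp352 had a range of 0.34, below the median gene. The brightest probe of Sp110 had a range of 0.19, but its other probes had ranges from 0.39 to 1.98.

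Of the 64 genes with a range above 3, 55 were above background on all 6 arrays, and 37 of these (67.3%) ran from WT 7 through WT 94 and WT 6 down to WT 92. Without the 2-cell-like list and the Zscan4 genes, 31 of 49 (63.3%) had this order, against the 6.30% given above. These 49 still hold related genes of multi-copy families, such as Fthl17d, Fthl17e and Fthl17f. Probes may not tell such copies apart, so the 49 are not independent of each other. Among genes of the Pramel family, relatives of a tumour antigen that are expressed in germ cells and early embryos, 32 were on the array, 12 were well above background on all 6 arrays and 15 were compared. Of the 12, 8 had a range above 1 and 10 were highest in WT 7. Over the compared genes above background on all 6 arrays, these shares were 6.69% and 29.4%. Gm13043, from a cluster of this family on chromosome 4, had 12.61 in WT 7, 11.10 in WT 94, 9.72 in WT 6 and 8.62 in WT 92. The genes Gm20767, Gm4303 and BC147527 had ranges of 4.34, 3.99 and 3.86 in the same order. These families were picked after the ranking of genes had been seen, so their counts describe that ranking.

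**Figure D2:**
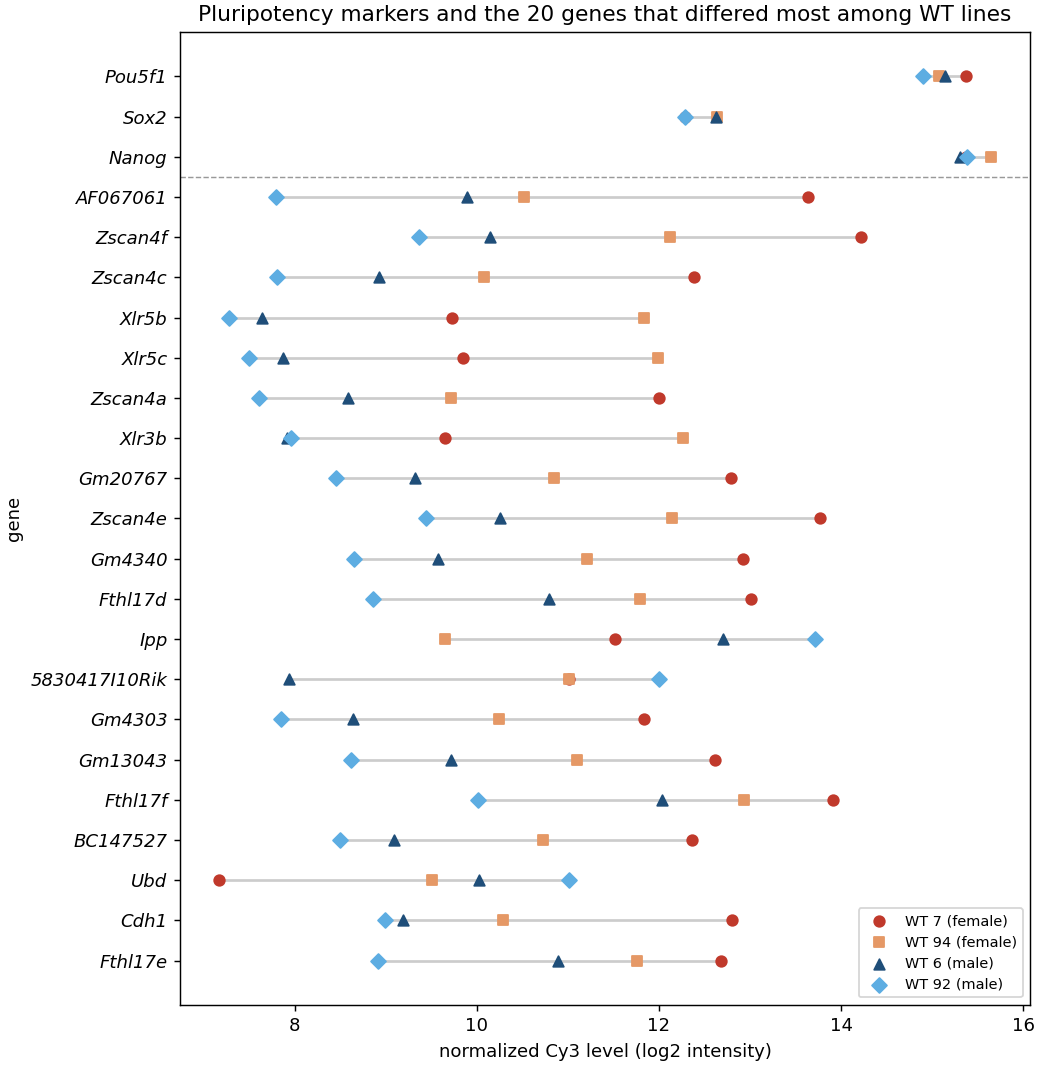
Level (normalized log2 Cy3 intensity, x axis) of Pou5f1, Sox2 and Nanog above the dashed line and of the 20 named genes with the largest range below it, 1 symbol per WT line (mean of its arrays). WT 7 lay highest for the Zscan4, Fthl17 and Gm genes and Cdh1, WT 94 for the Xlr genes, and WT 92 for Ipp, 5830417I10Rik and Ubd; for 5830417I10Rik WT 94 (11.01) covers WT 7 (11.02).

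Among X-linked genes of the germ line, different families peaked in different female lines. The Xlr genes, which lie in clusters on the X chromosome and belong to a family that includes a meiotic chromosome protein, were highest in WT 94 in each of the 7 compared. Over all compared genes WT 94 was highest in 18.0%. Only Xlr3b, Xlr5b and Xlr5c were above background on all 6 arrays. The other 4 Xlr genes passed through the female lines only, so the filter itself favoured a higher level there. Xlr3b had levels of 9.65 in WT 7, 12.27 in WT 94, 7.91 in WT 6 and 7.95 in WT 92, a range of 4.36, and Xlr5c had 9.84, 11.99, 7.87 and 7.49. The female lines lay above the male lines in both cases. Xlr4b was not well above background in the male lines and reached 10.70 in WT 94, at least 13.3-fold higher than in either male line, and 8.41 in WT 7. Xlr4a was likewise measured in the female lines only, and its level in WT 94 was at least 9.58-fold that of the male lines. The copies are near-identical and the probes may not separate them.

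Fthl17d, Fthl17e and Fthl17f encode relatives of the ferritin heavy chain and are known as X-linked genes of the early embryo. Fthl17f had levels of 13.92 in WT 7, 12.94 in WT 94, 12.03 in WT 6 and 10.02 in WT 92, a range of 3.90. Fthl17d and Fthl17e followed the same order with ranges of 4.15 and 3.77, whereas Fthl17a had a range of 0.72. Of the Rhox homeobox genes, which form an X-linked cluster active in reproductive tissue, 22 were on the array and 11 were above background on all 6 arrays. Of these 11, 8 had a range above 1 and WT 94 was highest in 7. Over the compared genes above background on all 6 arrays, these shares were 6.69% and 17.5%. WT 94 also lay above the mean of the other lines for 75.7% of the compared X-linked genes. Rhox2h had 7.87 in WT 7, 10.87 in WT 94, 8.13 in WT 6 and 7.52 in WT 92, so that WT 94 alone stood apart. Rhox5, an early embryonic member, had 14.15, 15.34, 14.74 and 14.71.

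Of the pluripotency genes, Dppa3 in WT 7, Fgf4 in WT 94 and WT 92, and Klf4 in WT 6 stood lower than in the other lines. The 29 genes of the list were well above background on all 6 arrays. The median range was 0.61, against 0.359 over the compared genes, and Dppa3, Fgf4 and Klf4 passed a range of 1 (10.3%, against 6.73%; 6 genes with median centring). Dppa3, a maternal factor that guards methylation in the zygote, had 10.82 in WT 7, 12.79 in WT 94, 12.01 in WT 6 and 12.42 in WT 92, with WT 7 lowest and a range of 1.97. Fgf4, the growth factor through which ES cells drive their own differentiation, had 15.14, 14.05, 15.12 and 13.88. One line of each sex was thus high and the other low for Fgf4. Klf4, a zinc-finger factor downstream of LIF, had 13.83, 13.92, 12.84 and 13.79, with WT 6 apart from the other lines. Esrrb, Tfcp2l1 and Prdm14, which belong to the same circuit, had ranges of 0.45, 0.61 and 0.65. WT 92 was lowest in 14 of the 29 genes, against 24.5% of all compared genes. The list's median deviation from the mean of the lines was 0.01 in WT 7, 0.05 in WT 94, 0.09 in WT 6 and -0.17 in WT 92. Tdgf1, a co-receptor for Nodal, had the smallest range of the list (0.20).

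Genes of the primed epiblast, the later state that follows implantation, were lowest in WT 7. Of 15 listed genes, which passed the background flag on all 6 arrays, 10 had a range above 1 (66.7%, against 6.73% of all compared genes), with a median range of 1.22. WT 7 was lowest in 12 and WT 6 highest in 9, while over all compared genes WT 7 was lowest in 32.5% and WT 6 highest in 26.6%. Fgf5, the classical marker of this state, had 7.43 in WT 7, 9.19 in WT 94, 9.33 in WT 6 and 9.09 in WT 92. WT 7 alone was low for Fgf5. Dnmt3b, a de novo DNA methyltransferase, had 13.92, 14.84, 15.66 and 14.86, and its other probes had ranges of 1.71 and 1.98. Pou3f1 had 9.99, 11.30, 11.72 and 11.18, and Otx2, a homeobox factor of the epiblast and forebrain, had 12.13, 13.28, 13.45 and 13.10. Zic2 had 10.61, 10.51, 11.78 and 10.08, so that WT 6 stood above the other lines. The count of 10 was 3 without WT 7 and 5 without WT 6. Dnmt3a, the other de novo enzyme, had a range of 0.37.

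**Figure D3:**
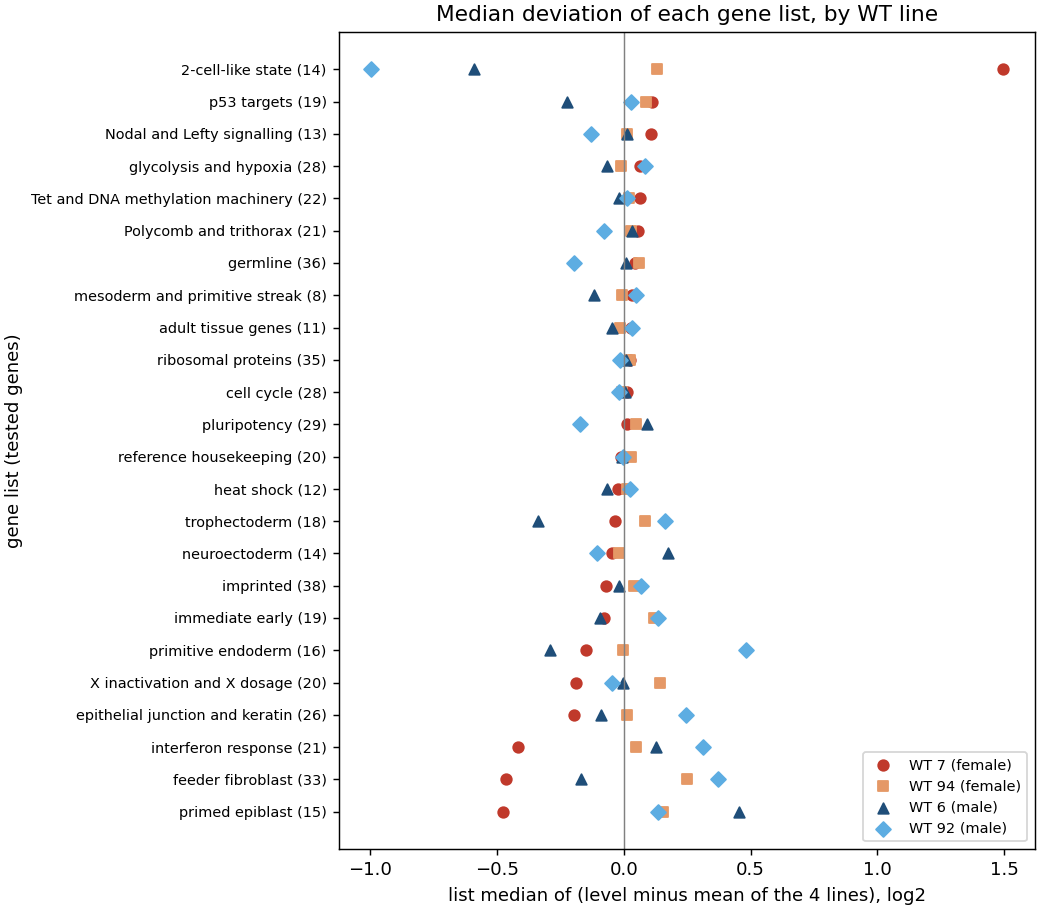
Median over each gene list of the level minus the mean of the 4 WT lines (log2, after subtraction of the same median over the compared genes), 1 symbol per line; the number of compared genes is in parentheses. WT 7 stood highest for the 2-cell-like list and at -0.48 for the primed epiblast list, WT 92 at 0.48 for the primitive endoderm list, and the ribosomal protein and housekeeping lists lay near 0 in each line. Of the 14 compared 2-cell-like genes, 8 were above background on every array, and the rest passed the filter through the female lines only.

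Fibroblast genes were measured in these RNAs after preplating. Of 34 fibroblast genes listed as markers of feeder cells, 32 were well above background on all 6 arrays and the other 2 on some, so none of the defining markers was at background in each line. Their summed linear intensity over 33 compared genes was 249123 in WT 7, 339484 in WT 94, 262316 in WT 6 and 405863 in WT 92, or 1.36 times as high in WT 94, 1.05 times in WT 6 and 1.63 times in WT 92 as in WT 7. WT 92 was highest in 26 of the 33 and WT 7 lowest in 25, against 25.6% and 32.5% of all compared genes. Col1a2, a chain of type I collagen, had 13.24 in WT 7, 14.12 in WT 94, 13.81 in WT 6 and 14.46 in WT 92. Tagln, a contractile protein of fibroblasts and smooth muscle, had 14.09, 15.20, 14.12 and 15.70. Each sex had a high and a low line for both genes. Of the list, 10 genes had a range above 1 (30.3%, against 6.73% of all compared genes). The count was 2 without WT 7 and 5 without WT 92. Fn1, which encodes fibronectin, had a range of 0.29.

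Primitive endoderm genes were highest in WT 92 in 14 of 16 compared genes and in 12 of the 14 above background on all 6 arrays, against 25.6% of all compared genes. The primitive endoderm is the extra-embryonic layer that coats the epiblast. Lrp2, the endocytic receptor megalin, had 9.22 in WT 7, 10.27 in WT 94, 9.62 in WT 6 and 11.07 in WT 92, and Col4a1, a basement membrane collagen, had 10.27, 10.45, 9.85 and 11.11. Gata6, the factor that specifies this layer, had 7.83 in WT 7, 7.50 in WT 94, 7.52 in WT 6 and 8.47 in WT 92. Foxa2 had 7.11, 7.29, 7.45 and 8.02. WT 92 thus stood above the other lines for each of these 4 genes. Hnf4a went another way, with 8.60 in WT 7 against 7.43, 7.27 and 7.19 in WT 94, WT 6 and WT 92. Gata4, another marker of this layer, was also highest in WT 7, with 7.92 against 7.42, 7.43 and 7.64 in the same lines. Of the 16, 5 had a range above 1 (31.3%, against 6.73% of all compared genes), 2 without WT 6 and 3 without WT 92, and 10 with the scanner's processed signal or 9 with an offset of 10. The later endoderm genes Afp, Ttr, Apoa1 and Apob were not well above background on any array. The fibroblast genes were also highest in WT 92, and their part in this result was not tested.

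Trophectoderm genes, those of the outer layer of the blastocyst, were lowest in WT 6 in 12 of 18 compared genes and in 9 of the 15 above background on all 6 arrays, against 23.6% of all compared genes. Of the 18, 7 had a range above 1 (38.9%, against 6.73% of all compared genes; 4 without WT 6), as did 6 of the 15, and simple keratins led the list. Krt8 had 13.74 in WT 7, 14.69 in WT 94, 12.59 in WT 6 and 15.44 in WT 92, a range of 2.85 (7.19-fold), and its other probe had a range of 2.56. Krt18, its filament partner, had 14.71, 15.26, 14.20 and 16.28, and Krt19 had 13.10, 12.89, 11.13 and 13.45. The male lines thus held the lowest and the highest level of the 3 keratins, with both female lines between them. The regulators of the layer varied less, with ranges of 0.38 for Cdx2, 0.45 for Eomes and 0.31 for Tfap2c. The fibroblast sum was lower in WT 6 than in WT 92 as well, and its part in the keratin levels was not tested.

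Cdh1, the E-cadherin that holds epithelial and ES cells together, did not follow the keratins. Its probe (chromosome 8 from 109193812, mm9) gave 12.80 in WT 7, 10.28 in WT 94, 9.19 in WT 6 and 8.99 in WT 92, a range of 3.82 (14.1-fold), while the repeat arrays of WT 94 differed by 0.51 and those of WT 6 by 0.14. Other genes of epithelial junctions ran differently. Epcam, a surface adhesion protein of ES cells, had 12.45, 12.58, 12.88 and 12.69, and Tjp1, a tight junction scaffold, had 11.63, 11.91, 11.88 and 12.12. WT 92 was highest in 17 and WT 7 lowest in 15 of the 26 junction and keratin genes, 8 of which had a range above 1 (30.8%; 5 without WT 7). Over all compared genes WT 92 was highest in 25.6%, WT 7 lowest in 32.5%, and 6.73% had a range above 1. The fibroblast markers ran the same way between WT 7 and WT 92, and their part in these counts was not tested. The value of Cdh1 rests on 1 probe.

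Interferon-responsive genes were highest in WT 92 in 11 and lowest in WT 7 in 11 of 21 compared genes, against 25.6% and 32.5% of all compared genes. Psmb8, an inducible subunit of the immunoproteasome, had 9.09 in WT 7, 10.93 in WT 94, 10.89 in WT 6 and 12.14 in WT 92, a range of 3.05 (8.27-fold), and Psmb9, another such subunit, had 9.30, 10.54, 10.63 and 11.13. Ubd, a ubiquitin-like modifier that interferon induces, had 7.17, 9.51, 10.02 and 11.02, a range of 3.85. WT 7 was low and WT 92 high for the 3 genes, and WT 94 and WT 6 lay between. Isg15, the ubiquitin-like product of a classical interferon target, had 9.61, 10.67, 10.23 and 11.72. Cxcl10 was highest in WT 92 too but lowest in WT 6, with 10.08, 10.70, 9.05 and 11.02. Of the list, 9 genes had a range above 1 (42.9%, against 6.73% of all compared genes; 5 without WT 7 and 6 without WT 92). Rsad2 and Irf9 had ranges of 0.23 and 0.29, and Ifit1, Ifit3, Irf7 and Mx1 were not well above background on any array. Of 23 H2 genes, which encode the class I and II molecules of antigen presentation and related proteins of the same complex, 8 had a range above 1 and WT 92 was highest in 14 (7 and 13 of the 22 above background on all 6 arrays). H2-K1 had 11.34, 11.78, 11.14 and 12.09. The fibroblast markers ran the same way between WT 7 and WT 92, and their part here was not tested.

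Of 33 compared germ-line genes other than the Xlr genes, 11 had a range above 1 (33.3%, against 6.73% of all compared genes), and these differed in which line was high. Stra8, the gate to meiosis, had 11.29 in WT 7, 9.87 in WT 94, 10.15 in WT 6 and 10.07 in WT 92. Sycp3, a part of the synaptonemal complex, had 11.68, 11.12, 11.77 and 12.58, and Piwil2, a protein of the piRNA pathway, had 8.84, 7.61, 8.51 and 7.48. WT 7 was high for Stra8, WT 92 for Sycp3, and 1 line of each sex for Piwil2. The count of 11 was 6 without WT 7 and 7 without WT 94. Dazl (range 0.66) and Ddx4 (range 0.36) encode RNA-binding proteins of germ cells, and their ranges were below 1. Sycp2, Piwil1, Tdrd1 and Asz1 were not well above background on any array.

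Of 38 compared imprinted genes, which are expressed from the allele of 1 parent, 11 had a range above 1 (28.9%). Over all compared genes the share was 6.73%, and the count of 11 was 6 without WT 7 and 7 without WT 6. Plagl1, a zinc-finger factor, had 10.67 in WT 7, 11.59 in WT 94, 9.67 in WT 6 and 10.65 in WT 92, and its other probes had ranges from 0.16 to 1.91. H19, a maternally expressed noncoding RNA, had 12.93, 13.38, 12.19 and 13.86, whereas its neighbour Igf2 had 7.29, 7.32, 7.04 and 7.74 and was well above background on 5 arrays. Meg3, a noncoding RNA of the Dlk1 domain, had 13.26, 14.14, 14.29 and 14.64, and Mirg of the same domain had 10.85, 11.71, 12.08 and 12.04. WT 7 was lowest for Meg3 and Mirg, whereas Dio3 was lowest in WT 94 (7.81, against 7.84 in WT 7). Igf2r and Dio3 had ranges of 0.11 and 0.09.

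Among 22 compared genes of DNA methylation and demethylation, Dnmt3b, also counted among the primed epiblast genes, was the 1 with a range above 1 (4.55%, near the 6.73% of all compared genes). The median range of the list was 0.443, above the 0.359 of all compared genes. The count was 3 with the scanner's processed signal or median centring, 2 with an offset of 10, and 0 without WT 7 or without WT 6. Tet1, which oxidises 5-methylcytosine, had 12.66 in WT 7, 12.67 in WT 94, 12.98 in WT 6 and 12.67 in WT 92. Tet2 had 11.81, 11.67, 11.93 and 11.39, and Tet3 had 8.45, 8.52, 8.51 and 8.53. Dnmt1, the maintenance methyltransferase, and its partner Uhrf1 had ranges of 0.24 and 0.19. Among 21 Polycomb and trithorax genes 1 had a range above 1: Bmi1, a subunit of the first Polycomb complex, with 9.53, 8.93, 8.57 and 8.33 (0 genes without WT 7, without WT 92 or with the median of a gene's probes). Ezh2, the catalytic subunit of the second complex, had a range of 0.10.

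Ribosomal protein and reference genes had smaller ranges than the median gene. None of 35 ribosomal protein genes, 20 reference genes, 28 glycolysis and hypoxia genes or 12 heat shock genes had a range above 1, and the median range was 0.214 for ribosomal protein genes, 0.302 for reference genes, 0.278 for heat shock genes and 0.451 for glycolysis and hypoxia genes, against 0.359 over all compared genes. With median centring 1 reference gene had a range above 1, and with the median of a gene's probes 1 glycolysis and hypoxia gene did. B2m, the light chain of class I molecules and often used as a reference, had the largest range of the reference genes, with 11.50 in WT 7, 12.10 in WT 94, 11.47 in WT 6 and 12.45 in WT 92. Among genes above the median level, the smallest ranges were those of Atp5h, a subunit of ATP synthase, with 15.91, 15.90, 15.89 and 15.91, and of Gle1, an mRNA export factor, with 10.82, 10.81, 10.83 and 10.81. The range of 0.01 for Atp5h was below the difference between its repeat arrays (0.16 in WT 94 and 0.10 in WT 6), and its other probe had a range of 0.29. Rnf8, Aurkaip1, H2az1, Thoc7, Bcl7b, Mrps7, Trappc13 and Kctd17 had ranges from 0.02 to 0.03. Of 28 cell-cycle genes, Cdk1 and Ccnd2 had a range above 1 (7.14%, near the 6.73% of all compared genes). The count was 1 without WT 7, without WT 92 or with the median of a gene's probes. Cdk1, the mitotic kinase, had 12.81, 12.51, 11.63 and 11.42, but its other probe had a range of 0.29.

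Of 29 adult tissue genes on the array, 16 were not well above background on any array. Nphs1, the nephrin of kidney podocytes, had 9.04 in WT 7, 8.49 in WT 94 and 7.19 in WT 6, and was not well above background in WT 92, so that its range there is not exact. Of the 9 genes above background on all 6 arrays, Myh6, a cardiac myosin, was the 1 with a range above 1 (0 without WT 6 or without WT 92). Of the 8 mesoderm and primitive streak genes compared, 1 had a range above 1 (2 with the processed signal or with no filter): Fgf8, a growth factor of the streak, with 7.66, 9.23, 8.84 and 10.23. Of 14 neuroectoderm genes, Zic1, Hes5 and Tubb3 had a range above 1 (1 gene without WT 6, 8 with the processed signal, 6 with an offset of 10). Zic1, a zinc-finger factor of the neural plate, had 8.96 in WT 7, 9.26 in WT 94, 10.21 in WT 6 and 9.03 in WT 92. Of 19 p53 targets, 3 had a range above 1 (1 without WT 6), led by Gtse1, a cell-cycle protein that restrains p53. Lefty1, an inhibitor of Nodal, had 13.71, 14.23, 14.80 and 14.74, and Nodal itself had a range of 0.21. Of 19 immediate early genes, Jun, Fos, Fosb and Dusp6 had a range above 1 (2 without WT 7, WT 6 or WT 92), and WT 92 was highest in 9. A range above 1 was thus found for 12.5% of the mesoderm, 21.4% of the neuroectoderm, 15.8% of the p53 and 21.1% of the immediate early genes. Over all compared genes, 6.73% had a range above 1 and WT 92 was highest in 25.6%.

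Some genes were measured in certain lines and not well above background in others. Olfr224, an odorant receptor gene, had 10.59 in WT 94, at least 12.3-fold higher than in WT 6 or WT 92, and 7.30 in WT 7. 1700013H16Rik, on the X chromosome, had 9.79 in WT 94, at least 7.32-fold its level in WT 92. Ttll11, of a family of enzymes that modify tubulin, was well above background in WT 7, WT 94 and WT 92 and not in WT 6, where it was at least 8.85-fold lower than in WT 94. Gm8300 and Tmem92, of the 2-cell-like list, had 9.88 and 9.68 in WT 7, at least 7.76-fold and 6.76-fold higher than in WT 92. Ipp, which encodes a kelch-repeat protein, was measured in the 4 lines but ran against the Zscan4 order, with 11.52 in WT 7, 9.65 in WT 94, 12.70 in WT 6 and 13.72 in WT 92. 5830417I10Rik had 11.02 in WT 7, 11.01 in WT 94 and 7.94 in WT 6, and it was highest in WT 92 with a range of 4.06. WT 6 alone was low.

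Between the female and the male lines, limma with Benjamini-Hochberg adjustment called 0 genes (0%) higher and 1 gene (0.00559%) lower in the female lines, and 812 higher and 590 lower at an unadjusted p under 0.05, where 895 in all were to be reached by chance. limma-trend gave the same counts of 0 and 1. The gene called was Gm10499, a predicted gene probed on chromosome 17 from 36278728. It had 6.41 in WT 7 and 6.64 in WT 94, against 11.46 in WT 6 and 11.26 in WT 92 (female minus male -4.83, SE 0.15, limma adjusted p = 0.0199). No female array measured it well above background, so it passed the filter through the male lines only. The mean of the female lines was at least 28.2-fold below that of the male lines. The call was lost when any 1 of the 4 lines was left out and with the scanner's processed signal. The Y-linked genes checked the labelled sex. Eif2s3y, a translation initiation factor gene, had 6.33 and 6.84 in WT 7 and WT 94, against 9.12 and 9.22 in WT 6 and WT 92. It was not well above background on the female arrays and passed the filter through the male lines only. Its mean over the female lines was at least 5.79-fold below that over the male lines (limma adjusted p = 0.106). Ddx3y, an RNA helicase gene, had 6.77 and 7.01 in the female lines, against 8.79 and 8.36 in the male lines. It also passed through the male lines only. It was not well above background in WT 7, where it was at least 3.51-fold below the mean of the male lines. It passed on 1 of the 2 arrays of WT 94 (limma adjusted p = 0.128 between the sexes). Both genes were thus at or near background in the female lines and above it in the male lines. Kdm5d, Uty, Usp9y, Zfy1, Zfy2 and Sry were not well above background on any array, and the brighter probe of Ube1y1 had a female minus male difference of 0.09, less than its repeat arrays of WT 94 differed (0.27), while its other probe had a range of 1.85.

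Among the 5 genes of smallest p in the female direction were Gm6003, with 10.97 and 10.67 in the female lines against 9.06 and 9.06 in the male lines, and Gtse1, with 10.83 and 10.62 against 9.40 and 9.32. Neither passed adjustment (limma adjusted p = 0.106 for each, the value that Spopfm2, B020031M17Rik and Gm5670 had too). Spopfm2 was not well above background on the male arrays and passed the filter through the female lines only. Cd99, which encodes a surface glycoprotein, had 9.80 and 10.52 in the female lines and 12.47 and 12.43 in the male lines, with a limma adjusted p of 0.123. These genes were chosen by their p, and their differences lie between slides as well as sexes. Xist, the RNA that coats an inactive X chromosome, was not well above background on any array.

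By chromosome, the female lines stood apart in different places. Over 721 X-linked genes, the median level of WT 94 was 0.17 above the mean of the other lines (relative to the autosomes), while that of WT 7 was -0.04. WT 7 minus WT 94, lines of 1 slide, had a median of -0.15 on the X chromosome. WT 94 lay above both male lines for 61.9% of X-linked genes, against 29.1% of autosomal genes. For WT 7 these shares were 41.2% and 36.3%. The median female minus male difference of X-linked genes was 0.10 over both female lines, 0.18 without WT 7 and 0.03 without WT 94. Of 20 compared genes of X inactivation and X dosage, WT 94 was highest in 10 and WT 7 lowest in 11, against 18.0% and 32.5% of all compared genes. Klhl13 had 13.60 in WT 7, 14.58 in WT 94, 13.34 in WT 6 and 13.71 in WT 92, and Dusp9, a phosphatase that dampens ERK signalling, had 12.16, 12.75, 11.71 and 12.78. Mid1, a microtubule-associated ubiquitin ligase, was not well above background in WT 7 and had 8.63 in WT 94, 8.73 in WT 6 and 8.93 in WT 92.

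On chromosome 8, the median of 942 genes was 0.24 higher in WT 7 than the mean of the other lines. Of these genes, 63.2% were higher in WT 7 than in both male lines, against 36.3% of autosomal genes. WT 7 exceeded WT 94, its neighbour on the slide, by a median of 0.29 there. On the other autosomes the medians of the 4 lines lay between -0.04 and 0.03. Over the alternative scalings, the WT 7 median on chromosome 8 was 0.24 to 0.29 and the WT 94 median on the X chromosome 0.17 to 0.23. Genomic copy number was not measured. Cdh1, Zfp42 and Ash2l lie on chromosome 8 and were highest in WT 7. Other genes there were not: Junb had 8.09 in WT 7 and 8.35 in WT 92, Psmb10 had 14.27 and 14.96, and Tubb3 was highest in WT 6. Whether the level of Cdh1 is linked to the median of the chromosome was not tested. Zfp42, a zinc-finger marker of ES cells, had 14.85 in WT 7, 14.52 in WT 94, 14.32 in WT 6 and 13.93 in WT 92, and Ash2l, a subunit of histone methyltransferase complexes, had 15.35, 14.57, 14.60 and 14.75.

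**Figure D4:**
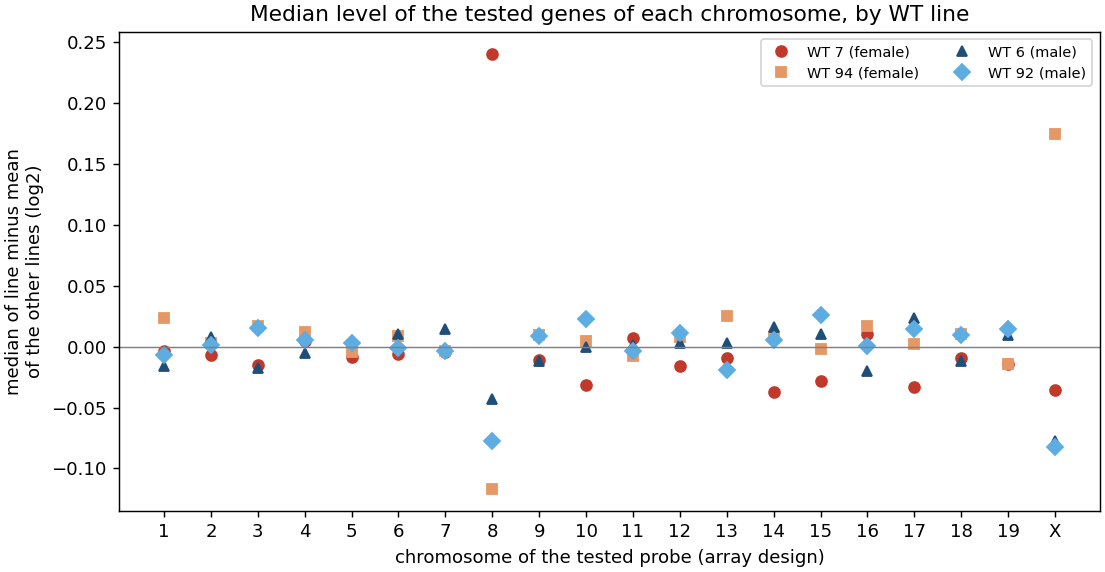
Median over the compared genes of each chromosome (x axis) of a line's level minus the mean of the other 3 lines (log2, relative to the autosomes), 1 symbol per WT line. WT 7 stood at 0.24 on chromosome 8 and WT 94 at 0.17 on the X chromosome, while the values on the other autosomes lay between -0.04 and 0.03.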

How the data were processed

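Each deposited scanner file gives, for every spot, a mean intensity, the median intensity of the local background and a processed intensity (Agilent Feature Extraction 10.1.1.1, per the file headers), with no normalization between arrays. The authors' table of processed ratios, with 10 columns, was not used. The members and the 25 gene lists were chosen with earlier results of these data known.

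From the Cy3 channel alone, background was corrected with normexp (offset 50), arrays were quantile normalized and log2 was taken. Outlier spots (97 to 184 per array) and control spots were left out, and spots of a probe, then repeat arrays of a line, were averaged (limma 3.58.1, R 4.3.3, the data.table package 1.17.8, matplotlib 3.10.9, biopython 1.88). Whether repeat arrays share an RNA extract is not given in the sources used here. Loess with Aquantile on both channels, which lets knockout RNA shape the WT levels, was an alternative. A RefSeq accession named 26590 of 39429 probes. Probes that every array of 1 sex or of both measured well above background were compared (22395), with the brightest standing for its gene (3745 genes had others). Female and male lines were compared by limma (2 against 2 lines, two-sided) with Benjamini-Hochberg adjustment at 0.05, after a check on simulated data. Named genes were the markers, the 20 largest and 10 smallest ranges, 10 genes measured in some lines only, the 5 smallest p-values per direction, the X and Y lists, and the 3 largest and 2 smallest ranges per list. Other genes, the families, the promoters and the alternatives by chromosome were chosen after values were seen. Results of a few genes are not reported here.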

Additional observations from a re-analysis of the deposited data

Results flagged for a closer look

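Among 176 named genes, 12 (6.82%) had 1 line far from the other 3, by a gap beyond Dixon's critical value for 4 samples. Over all compared genes the share was 5.40%, and chance flags about 1 in 20. WT 7 was low for Fgf5 (gap 0.876 of the whole range) and Mid1 (0.863), which was not well above background in WT 7. WT 94 was high for Olfr224 (0.893) and 1700013H16Rik (0.843), and low for Cd3e (0.888), whose range was 0.11. Olfr224 was not well above background in WT 6 and WT 92, nor 1700013H16Rik in WT 92, and both passed the filter through the female lines only. For these genes and Mid1 the gap rests in part on levels at background and is not exact. WT 6 was low for Klf4 (0.882) and high for Zfp352 (0.861) and Hsp90ab1 (0.939), which had ranges of 0.34 and 0.11. WT 92 was low for Tubb3 (0.847) and Twist1 (0.903) and high for Fosl1 (0.838).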

How the results depend on the processing

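The 1205 genes with a range above 1 became 2494 with the scanner's processed signal, 1112 to 1543 under the other scalings, filters and probe rules, and 603 to 1050 with a line left out. The 104 such list members became 62 to 88 with a line left out. The 1 gene lower in the female lines became 0 with the processed signal, 0 when only genes above background on all 6 arrays were kept (a filter that removes it), and 0 to 0 with a line left out; limma called 0 genes higher under each alternative run. With the positive and significant flag, 4495 genes were detected on no array, against 11600. The Ube1y1 female minus male difference turned to -0.70 with the median of its probes and was -0.018 (without WT 92) to 0.20 (without WT 6) with a line left out. The X-linked median of 0.10 was 0.03 to 0.18 with a line left out and 0.03 with no filter on dim probes. Of the 8 genes of the 2-cell-like list above background on all 6 arrays, 6 or 7 had this order of lines under 5 scalings, a count added after seeing the data. The cause of these changes was not tested. No paired analysis was possible because the replicate numbers count repeat arrays of a line and pair no female line with a male one. Levels near background are compressed by the offset, which limits differences among dim genes.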
